A study of Mus musculus with 18 samples.

Results

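The soluble factors described here are 8 genes whose products act on keratinocytes from neighbouring fibroblasts: Fgf7, Fgf10, Fgf2, Hgf, Csf2, Ptn, Mdk and Kitl. They were read through every probe that the platform annotation maps to them, which gave 18 of the 45121 probes of the array, and 8 of its 19030 named genes. Of these 18 probes, 13 were detected on at least 2 of the 18 arrays (detection p-value under 0.01) and could be tested, and at least 1 probe of each of the 8 genes was among them. The fibroblasts were immortalised 3T3 lines made from mouse embryos at E10.0 on a BL6/129/Sv background. The KO line was jnk1-/-jnk2-/-, without the stress-activated kinases JNK1 and JNK2, and the other line was wildtype. Both lines grew on culture inserts in FAD medium containing insulin, hydrocortisone, cholera toxin and human EGF, at day 0 without and at days 2, 4 and 6 with differentiating primary human keratinocytes below the insert. Day 0 has 1 array of KO and 1 of wildtype, days 2 and 4 have 2 of each, and day 6 has 4 of each, every array from 1, 2 or 3 pooled inserts. Each genotype is a single cell line, so variation between embryos does not enter the p-values. They rest on how far arrays of the same genotype and day scatter. That scatter holds differences between inserts. At day 6 it also holds differences between the sets of arrays described below, for which the main model had no term.

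In the skin, fibroblasts send growth factors across the basement membrane to the epithelium. FGF7 (keratinocyte growth factor) and FGF10 are made by mesenchymal cells and bind the epithelial splice form of the receptor FGFR2, FGF2 binds several FGF receptors, and HGF binds the receptor MET. CSF2 (GM-CSF) is a cytokine that keratinocytes answer, pleiotrophin (PTN) and midkine (MDK) are related heparin-binding growth factors, and KITL (stem cell factor) acts on the receptor KIT of melanocytes and mast cells. JNK phosphorylates Jun and other subunits of the transcription factor AP-1.

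Mean bead intensity was 581 to 653 on 6 arrays, day 6 replicates 2, 3 and 4 of both genotypes, and 392 to 482 on the other 12. The detection p-values of those 6 arrays were also of another kind, with values near 0 for the dimmest probes. They are called the second set and the other 12 the first set, and day 6 replicate 1 of both genotypes belongs to the first. Any day 6 comparison within the first set is therefore 1 KO against 1 wildtype array. A call lost there cannot be told apart from having fewer arrays. The lead probe of Mapk9, the gene of JNK2, spanned 4.51 to 5.60 on the KO arrays and 10.07 to 10.49 on the wildtype arrays (normalized log2 signal), while the probes of Mapk8, which encodes JNK1, overlapped between the genotypes. Which stretch of Mapk8 is missing in KO is not given in the labels, so its probes check nothing. Of 13 fibroblast markers, 10 were detected on every KO array and 11 on every wildtype array. Thy1, a fibroblast surface marker, was detected on 0 KO and 8 wildtype arrays, and Col1a2 on 1 KO and 9 wildtype arrays. Lum went the other way, detected on 8 KO and 3 wildtype arrays. At day 6, 2 of the 13 were higher in KO (Lum and Vim) and 5 lower (Col1a2, Thy1, Pdgfra, Dcn and Fn1). Of the lead probes of all named genes, 16.9% were higher and 15.6% lower. Of 7 tested keratinocyte markers, 0 were higher and 1 lower at day 6, with a median difference of 0.20. Over days 2, 4 and 6, 3 of the 7 were higher (Trp63, Krt14 and Krt1) and 1 was lower (Ivl). Of all probes tested, 36.6% were called over these days, 19.2% higher and 17.3% lower. Under median scaling 0 of the 7 were higher and 1 was lower. Ivl, a gene of the cornified envelope, was detected on 1 KO and 9 wildtype arrays, Trp63 on 6 KO and 2 wildtype arrays, Krt1 on 4 KO and 0 wildtype arrays and Krt14 on 3 KO and 0 wildtype arrays. The summed keratinocyte markers overlapped, at log2 9.24 to 10.06 in KO and 9.56 to 10.09 in wildtype. Krt10, detected on every array, made up most of this sum, at 8.89 to 9.73 in KO and 8.90 to 9.57 in wildtype. The sum therefore says little about the other keratinocyte markers. Of 4 tested macrophage markers 1 was lower at day 6 (Cd14) and 0 were higher, and their sum lay at log2 8.56 to 9.16 in KO and 9.21 to 10.89 in wildtype. Cd14 made up most of that sum, at 8.19 to 8.98 in KO and 8.91 to 10.84 in wildtype. Of 3 endothelial markers none passed at day 6, and of 3 melanocyte and mast cell markers Mitf was lower. The part of these marker differences in the results below was not tested. In such bulk RNA, fewer cells that make a factor and less RNA per cell cannot be told apart.

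The promoters of the factors that differed most by genotype, Fgf10 and Ptn, and of Fgf7 and Kitl, which showed other patterns, are printed as the 250 bases before the annotated start, from RefSeq on GRCm38.p6. Of the 8 members, 7 had a promoter entry and Hgf had 2, which made 8 windows. Capitals mark a CCAAT or TATAAA motif. The start used for Kitl is that of its promoter entry, and its window runs past the gene start annotated at chr10:100015615. The Fgf10 window is chr13:118714449-118714698 on the + strand, the Ptn window chr6:36810180-36810429 on the - strand, the Fgf7 window chr2:126034408-126034657 on the + strand and the Kitl window chr10:100015571-100015820 on the + strand.
Fgf10: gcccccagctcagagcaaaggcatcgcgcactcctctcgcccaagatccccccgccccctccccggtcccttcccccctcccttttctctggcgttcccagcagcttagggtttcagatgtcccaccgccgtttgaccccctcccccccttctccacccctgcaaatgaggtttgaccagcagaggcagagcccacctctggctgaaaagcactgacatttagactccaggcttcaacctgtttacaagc
Ptn: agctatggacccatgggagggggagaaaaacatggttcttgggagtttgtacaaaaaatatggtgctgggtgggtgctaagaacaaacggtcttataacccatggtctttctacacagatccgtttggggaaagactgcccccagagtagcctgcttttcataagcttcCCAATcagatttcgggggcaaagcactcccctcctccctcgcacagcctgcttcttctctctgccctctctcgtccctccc
Fgf7: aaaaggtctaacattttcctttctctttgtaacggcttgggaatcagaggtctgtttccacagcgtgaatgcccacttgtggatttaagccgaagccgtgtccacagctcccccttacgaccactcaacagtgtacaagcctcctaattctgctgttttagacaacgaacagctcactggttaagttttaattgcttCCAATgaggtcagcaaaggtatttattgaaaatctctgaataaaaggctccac
Kitl: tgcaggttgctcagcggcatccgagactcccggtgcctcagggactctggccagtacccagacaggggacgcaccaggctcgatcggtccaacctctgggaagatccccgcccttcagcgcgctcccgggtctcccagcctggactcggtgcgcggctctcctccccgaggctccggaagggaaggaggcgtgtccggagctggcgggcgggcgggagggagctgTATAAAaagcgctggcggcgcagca

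Each window was searched on both strands for the AP-1 motif TGANTCA, for CCAAT and for TATAAA. The AP-1 motif was in 0 of the 8 windows of the members and in 6.75% of the 32851 windows of all genes. CCAAT was in 2 of the 8, starting 53 bases before the start of Fgf7 and 81 bases before that of Ptn, against 33.8% of all windows. TATAAA was in 1 of the 8, starting 25 bases before the start used for Kitl, against 12.4% of all windows. These counts describe the letters of the windows only.

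Fgf10, the mesenchymal ligand, was lower in KO on every probe that measured it and at every day of co-culture. At day 6 its lead probe (ILMN_2982771, its probe with the highest mean signal) read 7.02, 7.10, 7.07 and 7.25 in KO and 9.63, 9.94, 10.51 and 10.02 in wildtype. At day 4 it read 7.03 and 6.87 in KO and 9.52 and 9.63 in wildtype, and at day 2 it read 6.93 and 6.60 in KO and 9.73 and 9.42 in wildtype. No KO array of days 2, 4 or 6 reached the lowest wildtype array of those days. The log2 difference was -2.91 ± 0.17 at day 6 (± standard error, limma, adjusted p = 4.41e-11), a 7.54-fold lower signal in KO. It was -2.63 ± 0.24 at day 4 (limma adjusted p = 8.82e-08) and -2.81 ± 0.24 at day 2 (limma adjusted p = 3.34e-08).

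The other probes of Fgf10 gave the same order of genotypes. ILMN_2736497 spanned 6.35 to 7.34 on the 8 KO arrays of days 2, 4 and 6, with a median of 6.74, and 9.41 to 10.42 on the 8 wildtype arrays, with a median of 9.59. Its difference at day 6 was -2.82 ± 0.18 (limma adjusted p = 3.17e-10). The dimmest probe, ILMN_1213777, was detected on 1 KO array and 8 wildtype arrays of the co-culture, so KO lay near the background there. Its difference at day 6 was -1.89 ± 0.25 (limma adjusted p = 5.81e-06). The call was lost within the first set alone, with 1 array per genotype at day 6, at -1.26. At days 4 and 2, where no KO array detected it, the KO signal was at least 3.11-fold and 3.36-fold lower. Such bounds raise undetected arrays to the lowest detected signal of each array. Some probes above that level were undetected too, so the bounds are not strict minima. Over the 18 arrays ILMN_2982771 correlated at Pearson r = 0.99 with ILMN_2736497 and at r = 0.95 with ILMN_1213777, points that share arrays and genotypes.

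**Figure D1:**
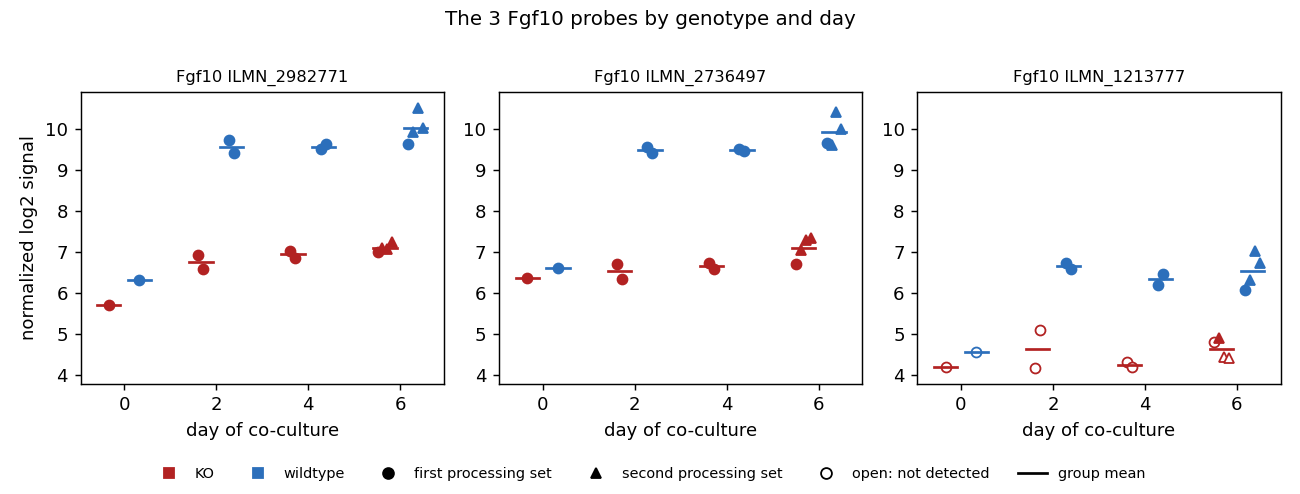
Normalized log2 signal (y) of the 3 Fgf10 probes by day of co-culture (x), KO left of wildtype, with 1 point per array, circles for the first set, triangles for the second, open symbols where not detected and bars at group means. From day 2 on the KO arrays lie below the wildtype arrays on each probe, and at day 0 the single arrays of the genotypes are close (5.72 in KO and 6.33 in wildtype for ILMN_2982771).

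At the start of co-culture Fgf10 rose in wildtype on all 3 probes and in KO on 1 of them. Before co-culture the lead probe read 5.72 on the KO array and 6.33 on the wildtype array. From day 0 to day 2 it rose by 1.05 ± 0.29 in KO (limma adjusted p = 0.0432) and by 3.25 ± 0.29 in wildtype (limma adjusted p = 1.35e-06). The second probe, ILMN_2736497, gave 0.16 ± 0.32 in KO, not past the threshold, and 2.87 ± 0.32 in wildtype (limma adjusted p = 2.15e-05), so the probes disagree on the KO change. The third, ILMN_1213777, was detected on neither day 0 array and on neither KO day 2 array, so it gives no KO change. In wildtype it was at least 3.92-fold higher at day 2 (limma adjusted p = 0.00978). The difference between the genotypes in this change, tested as an interaction, was -2.20 ± 0.41 on the lead probe (limma adjusted p = 0.0286) and -2.71 ± 0.45 on ILMN_2736497 (limma adjusted p = 0.0149). The third probe did not pass it (limma adjusted p = 0.397). Day 0 is 1 array per genotype, assumed to vary like the other groups, and both interaction calls were lost under median scaling (limma adjusted p = 0.804 and 0.571). They were also lost without wildtype day 2 replicate 1 (-2.04 and -2.64, limma adjusted p = 0.161 and 0.074) and without KO day 2 replicate 2 (-2.04 and -2.52, limma adjusted p = 0.153 and 0.075), and that of the lead probe without wildtype day 2 replicate 2 (-2.35, limma adjusted p = 0.055). The KO rise of the lead probe was lost without either KO day 2 array (0.89 and 1.21, limma adjusted p = 0.206 and 0.087) and under median scaling (limma adjusted p = 0.815). The wildtype rise of the third probe was lost without wildtype day 2 replicate 1 (limma adjusted p = 0.077), and those of the other 2 probes were kept without either wildtype day 2 array. Co-culture and 2 days on the insert cannot be told apart.

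The calls of that comparison over all members were few. Of the 13 tested probes, 1 rose from day 0 to day 2 in KO, against 4.8% of all probes called, 2.65% higher and 2.15% lower. In wildtype 3 rose, all of Fgf10, against 2.53% called, 1.79% higher and 0.738% lower. The interaction called 2 of 13 probes, both of Fgf10 and both negative, against 0.189% of all probes called, 0.0985% positive and 0.0909% negative. Fgf7 did not pass the threshold, with changes of 0.40 ± 0.23 in KO and 0.70 ± 0.23 in wildtype (limma adjusted p = 0.349 and 0.124). Within the first set, which holds both days, the wildtype change of 0.70 passed (limma adjusted p = 0.022). For Ptn the day 2 minus day 0 difference was 0.68 ± 0.66 in KO and 0.66 ± 0.66 in wildtype, not past the threshold over all arrays and past it within the first set in both (limma adjusted p = 0.021 and 0.034).

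**Figure D2:**
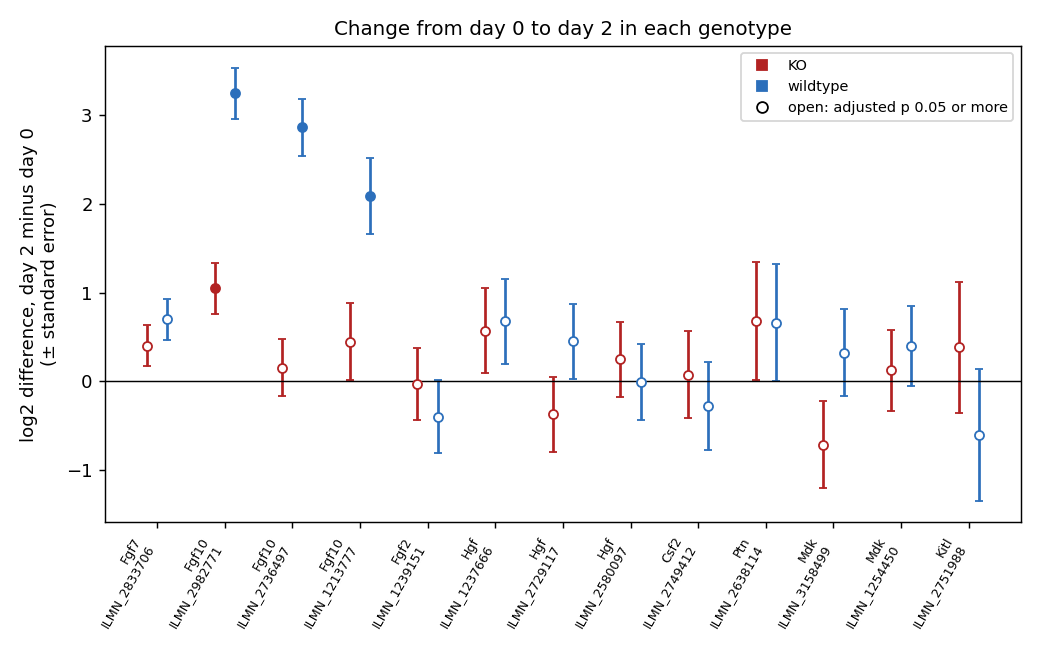
Log2 difference of day 2 minus day 0 (y, ± standard error) for the 13 tested probes (x), KO left of wildtype for each probe, filled where the adjusted p was under 0.05. The 3 Fgf10 probes stand highest in wildtype (fitted values of 3.25, 2.87 and 2.09, the last against a day 0 array that did not detect it), and 1 of them is filled in KO.

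Ptn, the heparin-binding factor pleiotrophin, showed the largest genotype difference of the members. Its lead probe, ILMN_2638114, read 9.47, 9.70, 10.03 and 7.17 in KO at day 6 and 12.73, 13.09, 13.13 and 12.73 in wildtype. KO replicate 4, at 7.17, lay apart from the other KO arrays, and no KO array overlapped a wildtype array. The difference was -3.83 ± 0.38 (limma adjusted p = 1.5e-07), a 14.2-fold lower signal in KO. Without KO replicate 4 it was -3.19 (limma adjusted p = 9.33e-12). It was -3.54 ± 0.54 at day 4 (limma adjusted p = 7.1e-05) and -3.45 ± 0.54 at day 2 (limma adjusted p = 9.34e-05). Before co-culture the single arrays read 8.91 in KO and 12.37 in wildtype, so the lower KO signal was already there at day 0, where it has no test. The second Ptn probe, ILMN_1248991, was detected on none of the 18 arrays.

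Fgf7, the keratinocyte growth factor, did not pass the test of the genotypes at any day. Its probe, ILMN_2833706, was detected on all 18 arrays. At day 6 it read 12.38, 12.63, 12.44 and 12.93 in KO and 12.88, 12.69, 12.61 and 13.06 in wildtype, and the groups overlapped. The difference was -0.22 ± 0.13 (limma adjusted p = 0.274), with a 95% interval from -0.49 to 0.06. It was 0.18 ± 0.19 at day 4 (interval -0.21 to 0.57) and -0.37 ± 0.19 at day 2 (interval -0.76 to 0.02), so a change of 2-fold either way lay outside the interval at each day. The single day 0 arrays read 11.92 in KO and 11.99 in wildtype.

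Fgf2, a ligand without a signal peptide, was near the background. Its probe, ILMN_1239151, was detected on none of the KO arrays and on 3 wildtype arrays, day 6 replicates 2, 3 and 4, all of the second set. At day 6 it read 4.12, 4.15, 4.19 and 4.23 in KO and 4.20, 5.11, 5.08 and 4.91 in wildtype, so that the first wildtype array fell within the KO range. With the KO arrays raised to the lowest detected signal of each array, KO was 1.20-fold lower. This is not a strict minimum, because a wildtype day 4 array read 5.41 without detection. The fitted difference was -0.65 ± 0.24 (limma adjusted p = 0.0474). This call was lost within the first set, with 1 array per genotype at day 6, at -0.08. It was also lost without any 1 of 7 of the 8 day 6 arrays, at limma adjusted p from 0.075 to 0.143. The fitted mean over days 2, 4 and 6, mostly of arrays without detection, was -0.50 ± 0.18 (limma adjusted p = 0.0319), and -0.29 without wildtype day 4 replicate 1 (limma adjusted p = 0.179). At days 4 and 2 no array of either genotype detected Fgf2.

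The 3 tested probes of Hgf, which encodes hepatocyte growth factor, did not give 1 answer. The lead probe, ILMN_1237666, read 6.98, 6.62, 5.84 and 5.79 in KO at day 6 and 6.40, 5.88, 6.95 and 6.14 in wildtype. The groups overlapped, and the difference was -0.04 ± 0.28 (limma adjusted p = 0.958, 95% interval -0.62 to 0.54). ILMN_2729117 read 5.71, 5.32, 5.82 and 5.84 in KO and 6.13, 6.19, 7.07 and 6.37 in wildtype, with no overlap. It was lower in KO by the test, at -0.77 ± 0.24 (limma adjusted p = 0.0233). This call was lost within the first set, with 1 array per genotype at day 6, and under median scaling. It was also lost without KO replicate 2 or wildtype replicate 3 (-0.65 and -0.56, limma adjusted p = 0.080 and 0.110). At day 0 the single arrays of ILMN_2729117 read 6.28 in KO and 5.63 in wildtype, the other order. Its KO and wildtype means were 5.91 and 6.09 at day 2 and 5.80 and 6.11 at day 4. Those of the lead probe were 5.81 and 5.54 at day 0, 6.39 and 6.21 at day 2 and 6.76 and 6.28 at day 4. Neither probe passed at day 2 or day 4. The correlation of these probes over the 18 arrays was r = 0.13. The third probe, ILMN_2580097, was detected on 2 KO arrays and 1 wildtype array.

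Csf2, which encodes GM-CSF, was detected on 0 KO arrays and on 3 wildtype arrays. At day 6 it read 4.38, 4.22, 4.24 and 5.01 in KO and 5.39, 4.21, 4.15 and 5.43 in wildtype, with 2 wildtype arrays above every KO array and 2 below every KO array. The fitted difference, against background in KO, was -0.33 ± 0.29 and did not pass (limma adjusted p = 0.489). Before co-culture Csf2 was detected on the wildtype array (5.21) and not on the KO array (4.22).

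Mdk, the relative of Ptn, lay near the background. Before co-culture its lead probe was detected on the KO array (5.84) and not on the wildtype array (4.50). This probe, ILMN_3158499, was detected on 8 KO and 6 wildtype arrays and read 4.43, 5.53, 5.69 and 5.83 in KO at day 6 and 4.66, 5.32, 5.39 and 5.53 in wildtype. The groups overlapped, with a difference of 0.14 ± 0.28 (limma adjusted p = 0.813, 95% interval -0.45 to 0.74). The lowest array of each genotype at day 6 was replicate 1, the array of the first set. ILMN_1254450 was detected on 1 KO array and 1 wildtype array, and the other 2 Mdk probes on none.

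Kitl, the ligand of KIT, was read by ILMN_2751988, and its day 6 values lay apart by array set. At day 6 it read 5.39, 7.41, 7.56 and 7.70 in KO and 4.97, 6.24, 6.65 and 6.90 in wildtype, with replicate 1 of the first set lowest in both. At days 2 and 4 it spanned 5.16 to 5.32 in KO, detected on all 4 arrays, and 4.25 to 4.77 in wildtype, detected on none. The single day 0 arrays read 4.85 in KO and 5.15 in wildtype, the other order, and neither detected it. Over all arrays the day 6 difference was 0.82 ± 0.43 and did not pass (limma adjusted p = 0.187). With the set as a block it was 0.82 ± 0.20 (limma adjusted p = 0.003), and within the second set 0.96 ± 0.21 (limma adjusted p = 0.010). Within the first set, with 1 array per genotype at day 6, the day 6 difference was 0.42. At day 4, where no wildtype array detected Kitl, the bound put KO at least 1.46-fold higher. The undetected wildtype array of day 0, at 5.15, lay close to the KO mean of 5.24 at day 4. This bound is therefore not a strict minimum. The day 4 test passed within the first set (limma adjusted p = 0.020) and not over all arrays (limma adjusted p = 0.319). The fitted mean over days 2, 4 and 6, with wildtype not detected at days 2 and 4, was 0.83 ± 0.32 (limma adjusted p = 0.0461), and this call was lost under median scaling and without most single arrays. Without KO day 6 replicate 1 the day 6 difference was 1.36 (limma adjusted p = 0.003), with only wildtype then holding a day 6 array of the first set. The other Kitl probes were detected on 1 array and on none.

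**Figure D3:**
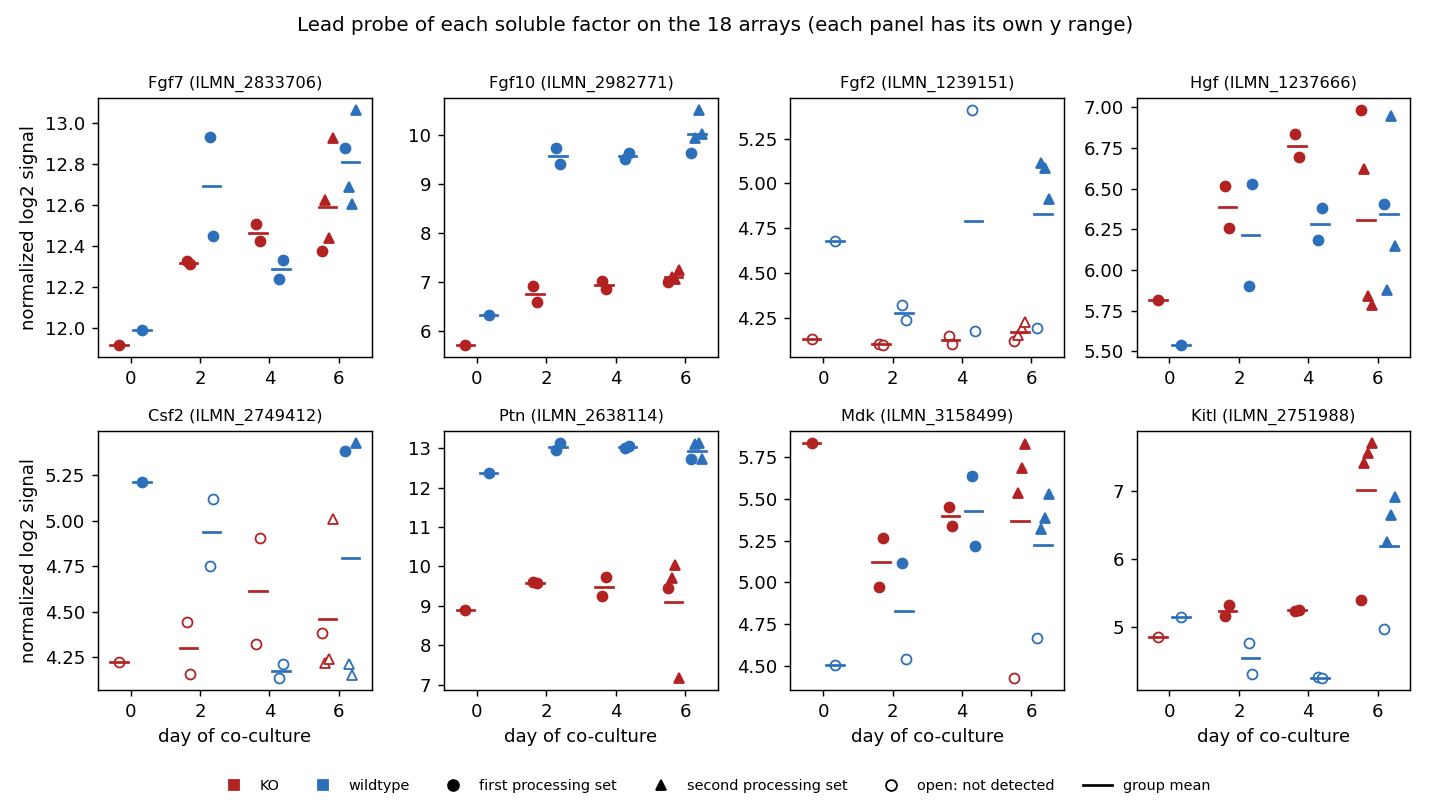
Normalized log2 signal (y, its own range in each panel) of the lead probe of each of the 8 factors by day of co-culture (x), KO left of wildtype, with 1 point per array, circles for the first set, triangles for the second, open symbols where not detected and bars at group means. Fgf10 and Ptn separate by genotype (7.25 or lower in KO and 9.42 or higher in wildtype for Fgf10 from day 2 on), and Kitl separates by set at day 6.

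Counted over the members, 6 of 13 probes from 4 genes were lower in KO at day 6 and 0 were higher. Of all 26407 probes tested, 26.8% were called in either direction, 12.9% lower and 13.9% higher. At day 4, 4 of 13 were lower (the 3 of Fgf10 and that of Ptn) and 0 higher, against 17.7% of all probes called, 8.66% lower and 9.02% higher. At day 2 the same 4 probes were lower and 0 higher, against 18.7% called, 9.18% lower and 9.47% higher. Over the mean of the days, 5 of 13 were lower and 1 was higher, against 36.6% called, 17.3% lower and 19.2% higher. The median difference of the 8 lead probes at day 6 was -0.27, beside 0.02 over the lead probes of all named genes. Within the first set, with 1 array per genotype at day 6, fewer of the 13 probes were called at that day.

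**Figure D4:**
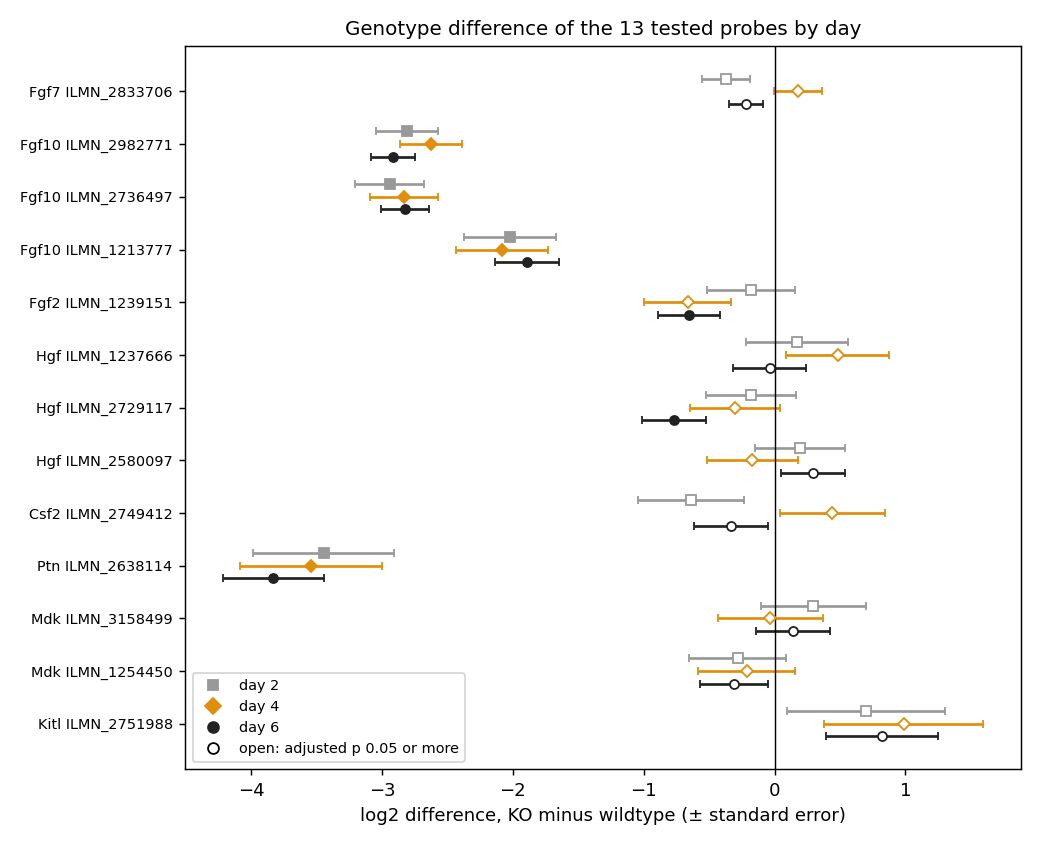
Log2 difference of KO minus wildtype (x, ± standard error) for the 13 tested probes (y) at days 2, 4 and 6, filled where the adjusted p was under 0.05. The Fgf10 and Ptn probes lie between -3.83 and -1.89 at all 3 days, and the other members lie nearer to 0.

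Between day 2 and day 6 no member probe passed. The test of limma called 0 of 13 in KO, 0 in wildtype and 0 for the difference between them, against 0%, 0.0379% (0.0151% higher and 0.0227% lower) and 0% of all probes, and the unadjusted p was under 0.05 for 2, 2 and 0 of the 13 and for 4492, 3942 and 1084 of all probes. On the lead probe of Fgf10 the difference was 0.34 ± 0.21 in KO and 0.45 ± 0.21 in wildtype (limma adjusted p = 0.388 and 0.317). For Ptn it was -0.50 ± 0.47 in KO and -0.11 ± 0.47 in wildtype. For Kitl it was 1.77 ± 0.52 in KO, not past the threshold (limma adjusted p = 0.171), and 0.15 ± 0.33 within the first set. In wildtype, where neither day 2 array detected Kitl, day 6 was at least 2.73-fold higher, also not past the threshold (limma adjusted p = 0.216). No wildtype array of the first set detected it at day 2 or day 6. Without replicate 1 of day 6, the array of the first set, the Kitl difference was 2.31 in KO and passed (limma adjusted p = 0.005). The wildtype test, against undetected day 2 arrays, passed as well (limma adjusted p = 0.022). Without that KO array ILMN_2736497 of Fgf10 also passed in KO, at 0.69 (limma adjusted p = 0.045), and 2943 of all probes were called. In these fits the day 2 arrays are all of the first set and the day 6 arrays of that genotype all of the second. Day and set cannot be told apart there.

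Other genes of these pathways were read through 1 lead probe each. Of 12 tested feedback genes of FGF and ERK signalling, 9 were lower in KO at day 6 and 0 higher, against 32.5% of the lead probes of all named genes called, 15.6% lower and 16.9% higher. Their median difference was -1.22. The ETS factor Etv5 lay between 5.36 and 6.35 on the KO arrays and at 8.54 or higher on the wildtype arrays, with a difference of -2.95 ± 0.17 at day 6 (limma adjusted p = 3.8e-11). The Sprouty inhibitor Spry3 was at -2.37 ± 0.16 and the ETS factor Etv1 at -2.04 ± 0.19. Spred2, Spred3 and Il17rd did not pass at day 6 (-0.47, 0.03 and 0.15). At days 4 and 2, 8 and 9 of the 12 were lower and 0 higher, against 21.6% of lead probes called at day 4 (10.6% lower, 11% higher) and 22.6% at day 2 (11.6% lower, 11% higher). Within the first set 8 of the 12 were lower at day 6.

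**Figure D5:**
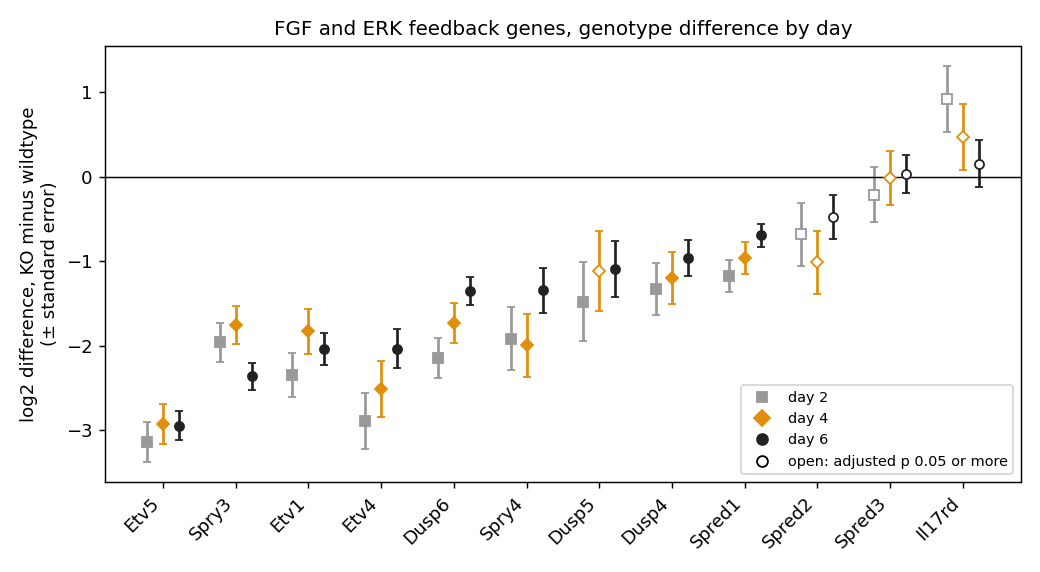
Log2 difference of KO minus wildtype (y, ± standard error) of the 12 tested FGF and ERK feedback genes (x, ordered by day 6) at days 2, 4 and 6, filled where the adjusted p was under 0.05. From Etv5 (-2.95 at day 6) to Spred1 (-0.70) 9 genes are filled at day 6, and Spred2, Spred3 and Il17rd are open.

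For the remaining lists the same shares of all lead probes apply at day 6 (16.9% higher, 15.6% lower), with a median difference of 0.02 over all of them. Of 9 other FGF ligands tested, 2 were higher in KO and 1 was lower, with a median of 0.08. Fgf13 was higher (1.01 ± 0.25), Fgf18, not detected in wildtype at day 6, was at least 1.37-fold higher, and Fgf1 was lower (-0.90 ± 0.21). Without KO replicate 4 or within the first set, 1 was higher and 1 lower. Of 15 FGF receptors and heparan sulphate carriers, 1 was higher and 4 were lower, with a median of -0.05, which is close to the 32.5% of all lead probes called. The higher gene was Fgfr2, receptor of FGF7 and FGF10 in its epithelial form, at 9.58 to 10.82 in KO and 7.60 to 9.02 in wildtype (1.90 ± 0.18 at day 6), and the probe was not assigned to a splice form. Fgfr1, the main FGF receptor of mesenchymal cells, was lower (-1.58 ± 0.23), as were the receptor-like Fgfrl1 (-1.53 ± 0.16) and the glypican Gpc4 (-1.36 ± 0.26).

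Of 9 genes of HGF activation and its receptor, 1 was higher and 1 lower, with a median of 0.04. The receptor Met, not detected in wildtype at day 6, was at least 2.38-fold higher in KO, and the plasminogen activator Plat was lower (-2.0 ± 0.27). The first set alone gave 0 higher and 2 lower. Of 6 other colony-stimulating factors and receptors, 2 were higher and 0 lower, with a median of 0.14. Csf2ra, a receptor chain of GM-CSF not detected in wildtype at day 6, was at least 2.80-fold higher, and Csf1, the macrophage factor, was higher (1.60 ± 0.19). The first set alone gave 1 higher. Of 11 receptors of PTN and MDK, 1 was higher and 2 were lower, with a median of -0.16. Nucleolin (Ncl) was higher (1.23 ± 0.18), and Lrp1 and Itga6 were lower (-1.62 ± 0.30 and -0.97 ± 0.22). The 3 tested genes of the list of the KIT receptor and the shedding of its ligand were Adam10, Adam17 and Mmp9, without Kit itself. The sheddase Adam17 was lower (-0.86 ± 0.12), 0 were higher, and the median was 0.02. Of 6 AP-1 subunits, 0 were higher and 3 lower, with a median of -0.54. These were Jun (-3.24 ± 0.25), Fosl2 (-0.85 ± 0.14) and Jund (-0.81 ± 0.22). The first set alone gave 1 higher and 2 lower, and under median scaling 2 were lower.

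For each member detected on at least 9 arrays, the gene with the most similar profile over the 18 arrays was named by Pearson correlation. It was Sod2, mitochondrial superoxide dismutase, for Fgf10 (r = 0.98), the actin-capping gene Capg for Ptn (r = 0.98), and Sh3rf1 for Fgf7 (r = 0.85). It was Ehmt1 for Kitl (r = 0.97), Phldb1 for Mdk (r = 0.86) and Senp8 for Hgf (r = 0.82). The arrays share genotype, day and set, so these values describe likeness only.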

How the data were processed

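Total RNA of fibroblasts was hybridised to 18 single-colour Illumina bead arrays. For each probe the deposited table gives a linear intensity and a detection p-value per the file headers. The deposited log2 matrix differed by at most 0.00500 from quantile-normalized intensities put on a log2 scale, and was not used for the main results. Scanner, software and the method of the detection p-value are not given in the sources used here. The detection p-values of 6 arrays were near 0 for the dimmest probes, so they were taken as 2-sided and converted to 1-sided. Of all probes, 34763 had 1 gene symbol, 18 several and 10340 none.

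The neqc function corrected the background and normalized by quantiles (offset 16, limma 3.58.1, R 4.3.3), and a probe was tested if 2 or more arrays detected it at p under 0.01 (26407 probes). A lead probe is that of a gene with the highest mean signal. The limma model had a mean for each genotype and day over the 18 arrays (intensity trend), and p-values were adjusted over all tested probes (Benjamini-Hochberg, 2-sided, threshold 0.05). Where a group had no array with detection, the fold is a bound, with that group raised to the lowest detected signal of each array. That level is not a strict limit of detection. Fgf2, for example, read 5.41 without detection on a wildtype day 4 array. Each "at least" therefore holds only for this raised level. The model was tested on simulated data. Members and gene lists were chosen with earlier results of these data known. All member probes are named, and of each other list up to 3 genes per direction by the size of the day 6 difference. Arrays with the same replicate number in KO and wildtype did not deviate together at every day (correlations from -0.10 to 0.55). At day 6 all of these correlations were positive (0.11 to 0.55), the highest for replicate 1, the first set. Those at days 2 and 4 (0.003 and -0.10) rest on 2 arrays per group and say little. The main model has no replicate block, and fits with the replicate number or the set as a block were run as alternatives. Precision is limited by how few arrays there are and by how far a probe lies above background.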

Additional observations from a re-analysis of the deposited data

Results flagged for a closer look

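Among 26 groups of 4 arrays (13 probes in 2 genotypes at day 6), 3 had 1 array far from the other 3, and chance flags about 1 group in 20. For Kitl (ILMN_2751988) the lowest KO array at day 6, replicate 1, read 5.3887, with the next at 7.41. It is the array of the first set. For Hgf (ILMN_2580097) the highest wildtype array at day 6 read 4.8404, with the next at 4.27, and none of the 4 arrays detected the probe. For Mdk (ILMN_1254450) the highest KO array at day 6 read 4.5773, with the next at 4.22, and again none of the 4 detected it.

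The change of Fgf10 from day 0 to day 2 differed between KO and wildtype by the interaction test of limma, at -2.198 for ILMN_2982771 and -2.71 for ILMN_2736497. Day 0 holds 1 array per genotype.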

How the results depend on the processing

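The lower Fgf10 signal of both brighter probes and of Ptn in KO kept its direction and its call at days 2, 4 and 6 under every alternative run. Over 36 results for single member probes, 496 of 567 alternative values kept their side of the threshold, 58 lost the call and 13 gained it. None reversed direction where the main or the alternative value was called.

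Median scaling gave 4293 probes at day 6 (7079 in the main model), 1922 at day 4 (4667), 2110 at day 2 (4927), 6237 over the days (9660), 93 and 170 from day 0 to day 2 in KO and wildtype (1268 and 667), 2 for the interaction from day 0 to day 2 (50) and 3 from day 2 to day 6 in wildtype (10), with 0 member probes for KO from day 0 to day 2 and for that interaction. It moved the median of all probes by 0.38 in KO and 0.29 in wildtype from day 2 to day 6, and by -0.14 for the first interaction. The share of higher calls moved to 37.6% at day 4 (51.0%), 31% at day 2 (50.8%), 37.8% over the days (52.6%), 79.6% and 81.2% from day 0 to day 2 in KO and wildtype (55.3% and 70.8%), 100% for the interaction (52.0%) and 66.7% from day 2 to day 6 in wildtype (40.0%). Without background correction that share was 58.1% for wildtype from day 0 to day 2 and 60% from day 2 to day 6. The cause was not tested.

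Within the first set, 4715 probes and 3 member probes were called at day 6, 3952 and 2 from day 0 to day 2 in KO, 2460 and 5 in wildtype, 779 for the interaction and 1 from day 2 to day 6 in KO. With the set as a block the counts were 2660 in KO and 1331 in wildtype from day 0 to day 2, 198 for that interaction, 1 and 2 from day 2 to day 6, and 2 for the later interaction. Without background correction 85 were called for the first interaction, 25 from day 2 to day 6 in wildtype and 0 member probes from day 0 to day 2 in KO. Without the filter the counts were 1010 in wildtype from day 0 to day 2, 175 for the first interaction, 49 and 38 from day 2 to day 6 in KO and wildtype and 1 for the later interaction, with 0 member probes from day 0 to day 2 in KO. With 1 lead probe per gene 821 were called from day 0 to day 2 in KO, and without the intensity trend 772, with 0 member probes there and 1 for the interaction.

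With the replicate number as a block the first interaction called 82 probes instead of 50, and Fgf2 at day 6 lost its call (limma adjusted p = 0.060). The crossed pairing at day 4 was chosen after seeing the data and gave 5062 probes. Leaving out 1 array at a time gave 3092 to 3370 probes at day 2, 2959 to 3415 at day 4, 242 to 355 and 235 to 289 from day 0 to day 2 in KO and wildtype, 7 to 31 for the first interaction, 0 to 2943 and 0 to 1529 from day 2 to day 6, and 0 to 5 for the later interaction. Member probes numbered 0 to 0 from day 0 to day 2 in KO, 0 to 2 for the first interaction, and 0 to 2 and 0 to 1 from day 2 to day 6 in KO and wildtype. Probes near the background (Fgf2, Csf2, Mdk) give bounds at most.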
